A study of Rattus norvegicus with 69 samples.

Results

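Interferon-stimulated genes were followed in the livers of rats given bariatric surgery, gut hormone treatment or a control treatment. The members were the rows of the count table whose gene symbol equals 1 of 37 listed symbols. Of these symbols 36 were found, Xaf1 was not found under that symbol, and Dtx3l had 2 rows with the same gene identifier, which gave 37 rows among the 38513 of the table. All 37 rows passed the filter on low counts.

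The animals were male Wistar rats made obese on a high-fat diet, which then chose freely between high-fat and low-fat food and were killed after an overnight fast. They had Roux-en-Y gastric bypass (RYGB, n = 14, labelled Bypass), sham surgery (n = 12), liraglutide injections combined with PYY3-36 from an osmotic minipump (liraglutide+PYY3-36, n = 11, labelled PYY_Lira), PYY3-36 alone (n = 5), liraglutide alone (n = 5) or saline by both routes (n = 8). A further 8 libraries carry the label BWM and 6 the label Lean, and the sources used here do not state what was done to those animals. Each library was taken as 1 animal, since the labels give only replicate numbers, and p-values measure the spread between these libraries. The labels also give each library a batch letter, whose meaning is not stated, with 41 libraries in batch A and 28 in batch B. RYGB (11 and 3), sham (7 and 5), liraglutide+PYY3-36 (6 and 5) and saline (3 and 5) had libraries in both, PYY3-36 and liraglutide only in B, BWM and Lean only in A. By the study's methods 6 liraglutide+PYY3-36 animals and 3 saline animals were fed for longer, the same numbers as these groups have in batch A, but the labels do not identify them.

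Interferons are secreted proteins that signal through paired cell-surface receptors and, for type I and type III interferons, the kinases Jak1 and Tyk2. Type I and type III interferons activate a complex that includes Stat2 and Irf9 and binds a DNA motif called the interferon-stimulated response element, whereas interferon gamma acts through another motif, the gamma-activated site. The induced genes encode antiviral proteins, sensors of foreign nucleic acids, the ubiquitin-like modifier Isg15, and factors such as Irf7 that amplify or end the response. In liver they are induced in hepatocytes as well as in Kupffer cells, the resident macrophages.

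The promoters of the members show these motifs. RefSeq promoter windows of the rat assembly GRCr8, each reaching from 250 bases before to 50 bases after the annotated start, were found for 25 of the 36 genes. The response element was searched as GAAANNGAAA on both strands and was present in 15 of the 25 windows (60%), against 1312 of all 33469 windows (3.92%). At least 2 matches, which may overlap, were found in 5 of 25 windows (20%), against 0.266% of all windows. The gamma-activated site, searched as TTCNNNGAA, which reads the same on both strands, was found in 6 of 25 windows (24%), against 8.87% of all. No window was given for Isg15, Mx2, Oas2, Ifit1, Ifit2, Ddx58, Dhx58, Usp18, Zbp1, Rtp4 and Adar. A match describes the letters of the window and is not evidence of binding. The stretches below belong to members to which the results refer, Irf7 because of its high level in single animals, Gbp2 and Gbp5 because they were highest in other animals than Irf7, and Oas1a, Ifi44 and Rsad2 because they differed between batches. Capitals mark the response element, and each sequence reads 5′ to 3′ on the strand of its gene.
Irf7 (chr1:205800063-205800112, minus strand, motif 69 to 60 bases before the start): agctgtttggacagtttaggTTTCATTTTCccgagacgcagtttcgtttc
Gbp2 (chr2:234005676-234005725, plus strand, motif 31 to 22 bases before the start): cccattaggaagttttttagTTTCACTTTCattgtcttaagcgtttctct
Gbp5 (chr2:233910923-233910972, plus strand, motif 56 to 47 bases before the start): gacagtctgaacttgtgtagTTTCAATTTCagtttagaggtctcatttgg
Oas1a (chr12:41330405-41330460, plus strand, motifs 41 to 26 bases before the start): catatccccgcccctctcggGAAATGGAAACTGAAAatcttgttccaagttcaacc
Oas1b (chr12:41395876-41395931, minus strand, motifs 59 to 44 bases before the start): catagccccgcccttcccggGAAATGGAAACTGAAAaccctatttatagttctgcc
Ifi44 (chr2:243303841-243303886, minus strand, motif 26 to 17 bases before the start): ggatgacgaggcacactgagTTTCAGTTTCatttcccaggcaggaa
Rsad2 (chr6:48788238-48788287, minus strand, motif 147 to 138 bases before the start): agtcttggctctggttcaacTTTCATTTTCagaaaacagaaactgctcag
In Oas1a and its neighbour Oas1b, which is printed for comparison, 2 overlapping matches form 1 run of the same letters. Gbp2 and Gbp5 carry the motif in the other orientation, as Irf7, Ifi44 and Rsad2 do.

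Total counts per library ranged from 9110860 to 27559144 with a median of 21027325. The summed level of 8 hepatocyte markers ranged from 65375 to 437555 CPM (reads scaled to a common library size), and none of the 8 was at 0 in any library. Levels below are CPM on edgeR's effective library sizes. In 6 batch B libraries, liraglutide replicate 4, liraglutide+PYY3-36 replicates 8, 9 and 11, PYY3-36 replicate 5 and sham replicate 12, the first principal component of all genes (37.8% of the variance) was at least 104, against at most 72.4 in the other batch B libraries. Liraglutide replicate 4 was the lowest of the 69 libraries for 8 rows and PYY3-36 replicate 5 for 7, the largest numbers of any library, whereas sham replicate 12 was highest for Ifi27, Ifit2 and Ifih1, and PYY3-36 replicate 5 for Eif2ak2 and both rows of Dtx3l.

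Per kilobase of exon, the median levels of the members ranged over more than 3 orders of magnitude. Ifi27, a small membrane protein, was highest with a median of 788 CPM per kilobase, followed by the membrane tether Bst2 with 178. Ifi35, a partner of the interferon-induced protein Nmi, Stat2 and the chaperone-like Rtp4 followed at 27.1, 26.5 and 25.3 CPM per kilobase. The lowest were Oas2 with 0.235, the Z-nucleic acid sensor Zbp1 with 0.307 and Ifit1 with 0.474. Oas2, Zbp1 and Ifit1 had median counts of 13, 18 and 19 reads, so their values carry the most counting error. Because the authors divided reads that fit several places, part of a count can come from a relative or an overlapping gene. Fractional values made up 100% of those of Mx2, 94.2% of Oas1a, 82.6% of Parp14, 81.2% of Oas1b, 79.7% of Eif2ak2, 60.9% of Bst2, 58% of both Dtx3l rows, 56.5% of Parp9, 49.3% of Stat2, 44.9% of Mx1, 42% of Herc6 and 31.9% of Ifit1, and these levels are less certain than those of the other members.

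These genes varied widely between single animals of one group. In bulk liver, more cells of a type and more RNA per cell cannot be told apart. The coefficient of variation within group and batch, taken from edgeR's dispersion and free of counting error, had a median of 0.39 over the 37 rows, against 0.313 over all 16676 genes. It lay above the trend of all genes at the same level in 25 of 37 rows, against 34.6% of all genes. Ifit1 (1.91), Isg15 (0.991), Mx2 (0.855), Oasl (0.837) and Irf7 (0.749) varied most, and 11 rows were above the 90th percentile of all genes. Ifi35 (0.199), the sensor regulator Dhx58 (0.246), the ADP-ribosyltransferase Parp14 (0.253) and Irf9 (0.262), a subunit of the complex that binds the response element, varied least.

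**Figure D1:**
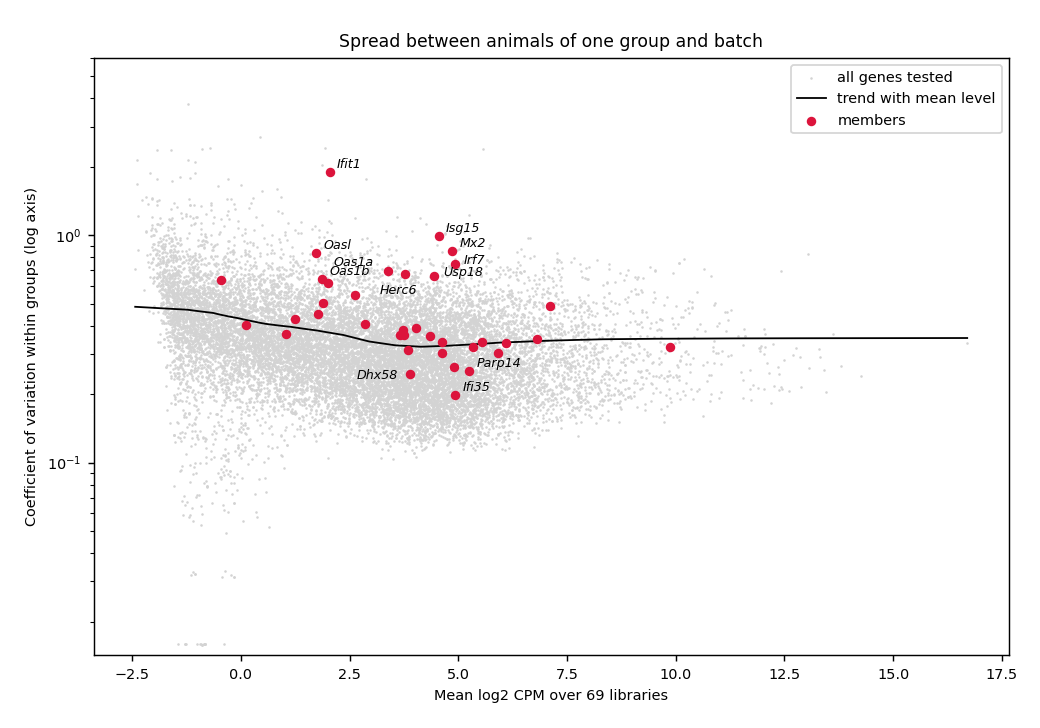
Coefficient of variation within group and batch (log axis) against mean log2 CPM for all genes tested (grey) and the members (red), with the trend of all genes as a line. Ifit1 lies highest among the members at 1.91 and Ifi35 lowest at 0.199, and 25 of the 37 rows are above the trend.

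A small number of libraries, spread over several groups, carried the high values. Liraglutide+PYY3-36 replicate 7 was the highest of all 69 libraries for 10 rows and sham replicate 9 for 9, which together make 19 of 37. In the former 23 rows and in the latter 21 exceeded 2 times their median over the 69 libraries, and 7 libraries had at least 10 such rows, the others being saline replicates 2 (17 rows) and 5 (14), BWM replicate 5 (12), RYGB replicate 3 (12) and RYGB replicate 12 (12). In 24 libraries no row exceeded 2 times its median. The 7 libraries came from 5 groups and from both batches.

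**Figure D2:**
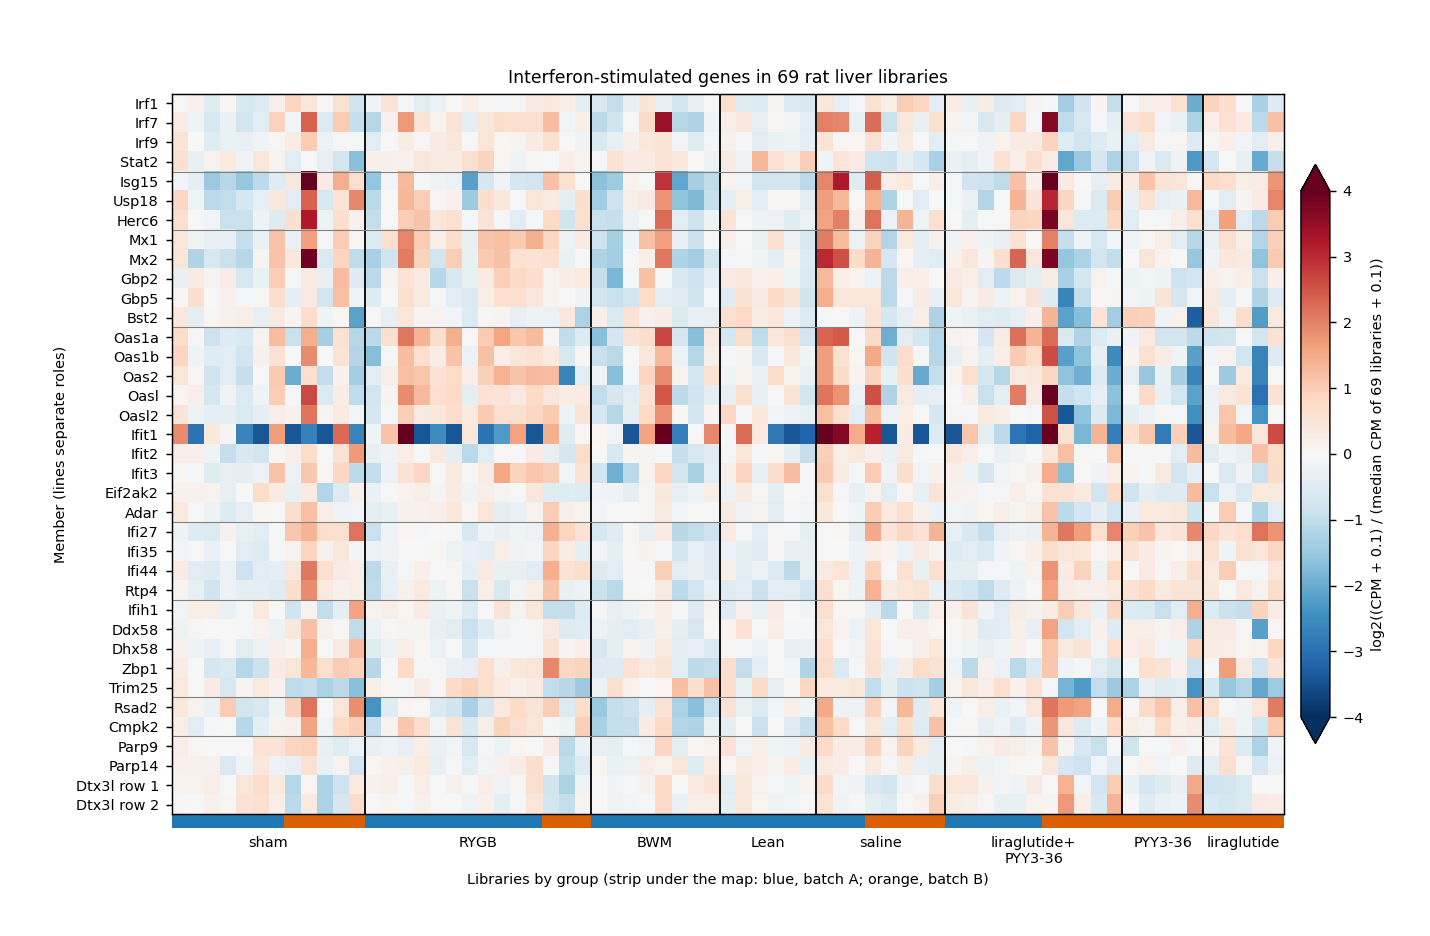
Members (rows, ordered by role) in 69 libraries (columns, ordered by group and then batch), as log2 of the ratio of CPM + 0.1 to the median CPM of all libraries + 0.1. Single dark red columns stand in sham, BWM, saline and liraglutide+PYY3-36, of which liraglutide+PYY3-36 replicate 7 was highest for 10 rows and sham replicate 9 for 9.

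Isg15 (Rnor_6.0 chr5:173624862-173629124, minus strand), the ubiquitin-like modifier that is joined to newly made proteins, had the second largest variation. Its level ranged from 2.89 over a median of 7.15 to 434.1 CPM in sham, from 1.81 over 7.62 to 20.9 in RYGB, from 6.07 over 10.7 to 79.2 in saline and from 4.16 over 8.44 to 398.8 in liraglutide+PYY3-36. It ranged from 1.92 over 3.74 to 63.3 CPM in BWM and from 3.92 over 5.06 to 9.33 in Lean. The values were 10.9, 18.6, 12.1, 11.8 and 8.64 CPM with PYY3-36 and 14.4, 13.6, 9.88, 10.5 and 29.2 with liraglutide. The groups overlapped except Lean and liraglutide, whose libraries are in different batches, the group medians lay between 3.74 and 13.6 CPM, and sham replicate 9 stood at 434.1 CPM where the next highest sham library had 23.2.

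Irf7 (chr1:214249388-214252909, minus strand), the transcription factor that amplifies interferon production, was highest in liraglutide+PYY3-36 replicate 7 (239.7 CPM) and BWM replicate 5 (205), followed by sham replicate 9 (97.2) and saline replicate 5 (89.2). Its group medians lay between 13.6 (BWM) and 27.7 CPM (saline). The dynamin-like GTPase Mx2 reached 247 CPM in sham replicate 9, 229 in liraglutide+PYY3-36 replicate 7 and 136 in saline replicate 2, and its group medians lay between 8.5 (BWM) and 25.1 CPM (RYGB). The same 2 libraries led for Herc6, the ligase that attaches Isg15 in rodents, with 119 CPM in liraglutide+PYY3-36 replicate 7 and 79.3 in sham replicate 9, and for Usp18, the protease that removes Isg15, with 128 and 80.3. In every group the ranges of these genes overlapped those of the other groups.

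Ifit1 (chr1:252944105-252946170, plus strand), which binds viral RNA by its end, did not follow these libraries throughout. It was at 0 in 12 of the 69 libraries and had a median of 0.979 CPM, with 59.0 CPM in saline replicate 2, 50.4 in liraglutide+PYY3-36 replicate 7, 44.2 in BWM replicate 5 and 23.1 in RYGB replicate 3. In sham replicate 9, which was highest for Isg15 and Mx2, Ifit1 was at 0.0642 CPM. Its neighbours Ifit2 and Ifit3 were detected in every library, with lowest levels of 5.23 and 0.662 CPM. Gbp2 and Gbp5, guanylate-binding proteins best known as targets of interferon gamma, were highest in saline replicate 2 (16.9 and 5.19 CPM) and next in sham replicate 11 (16.3 and 4.33). In sham replicate 9 they were at 8.6 and 2.38 CPM, within the range of the other sham libraries.

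**Figure D3:**
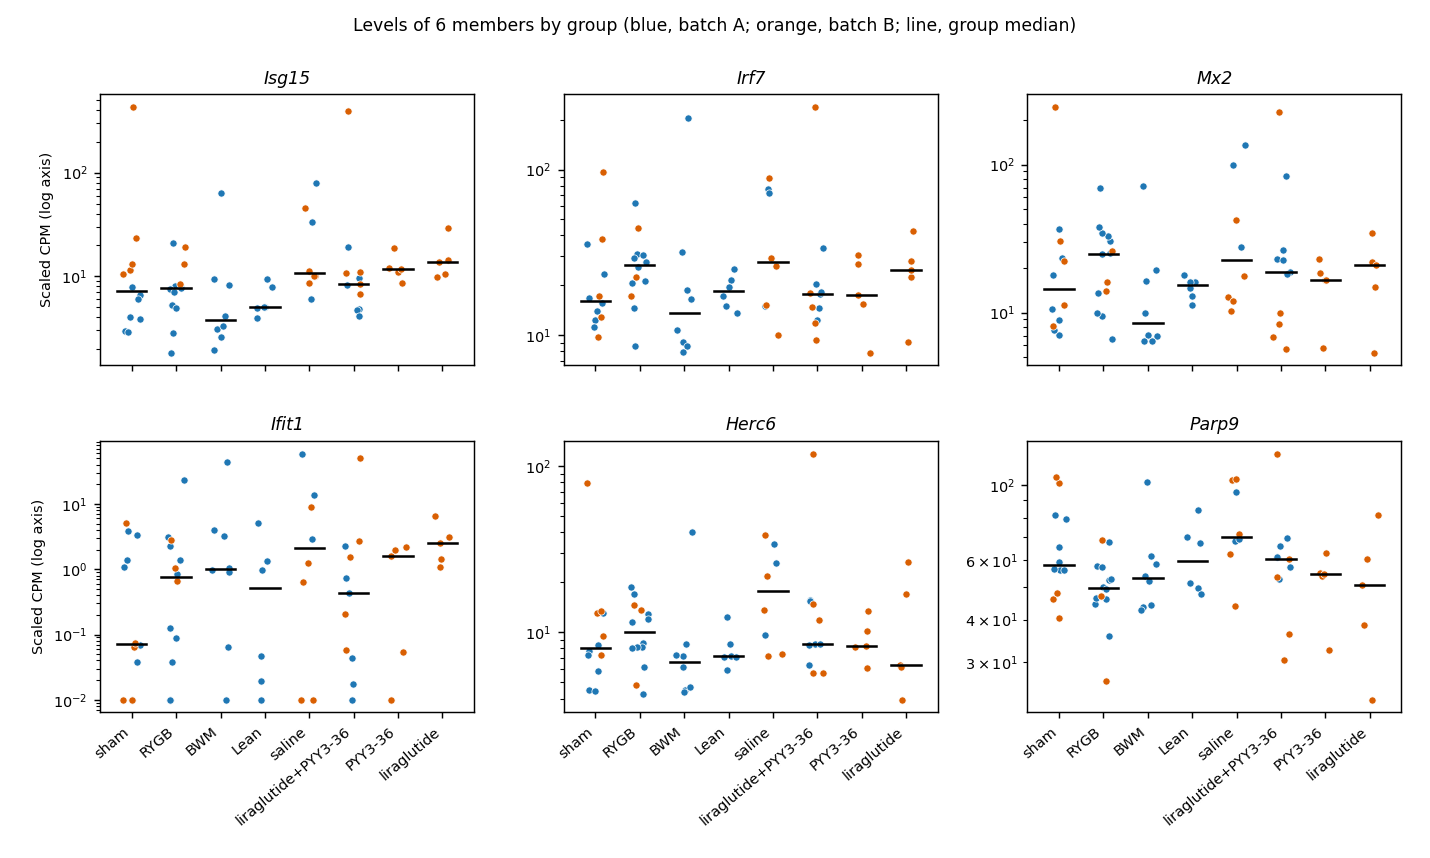
Levels of Isg15, Irf7, Mx2, Ifit1, Herc6 and Parp9 in each library by group, in CPM on a log axis, with batch A in blue, batch B in orange and the group median as a line; values of 0 are drawn at 0.01. The groups overlap for each gene except Lean and liraglutide for Isg15, and single libraries reach 434 CPM for Isg15 and 239.7 CPM for Irf7.

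Marker levels of immune and other cells are given beside this pattern. The sum of 10 Kupffer cell and macrophage markers was 222 CPM in sham replicate 9 and 264 in liraglutide+PYY3-36 replicate 7, which placed these libraries 60th and 50th of 69. The sum of 12 T and NK cell markers (29.8 and 28 CPM) placed them 40th and 48th, and that of 5 plasmacytoid dendritic cell markers (1.48 and 1.3 CPM, with Ly6d at 0 in every library) 17th and 24th. In saline replicate 2, by contrast, these 3 sums were the 3rd, 5th and 5th highest, at 577, 48.1 and 2.03 CPM. RYGB replicate 3 had the highest Kupffer cell and macrophage sum of all libraries (717 CPM) and the 2nd highest T and NK cell sum (53.4 CPM). Its plasmacytoid dendritic cell sum (1.19 CPM) was 33rd and its sum of 5 B cell markers (0.663 CPM) 69th of 69. The libraries 2nd, 4th and 5th for the Kupffer cell and macrophage sum were RYGB replicate 9, BWM replicate 4 and RYGB replicate 10. In them 5, 3 and 4 rows exceeded 2 times their median. Sham replicate 9 was 65th for the hepatocyte sum (99626 CPM) and 3rd for that of endothelial markers (161.4 CPM). Liraglutide+PYY3-36 replicate 7 was 38th and 22nd for these sums (153475 and 115.6 CPM). RYGB replicate 12, which had the lowest total count (9110860), was 68th for the hepatocyte sum (70743 CPM) and 1st for the endothelial sum (185.2 CPM). It was 2nd for B cell and neutrophil markers, 6th for T and NK cell, 22nd for Kupffer cell and macrophage and 41st for plasmacytoid dendritic cell markers. The part of these cells in the member levels of these libraries was not tested.

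Other genes of the pathway were read in the same libraries. Of 12 interferon ligand genes, 7 were at 0 in all 69 libraries and none passed the filter, and the highest count of any except Ifne was 2 reads. In sham replicate 9 and liraglutide+PYY3-36 replicate 7 the ligands other than Ifne summed to 0 reads, which allows levels of up to 0.193 and 0.163 CPM by counting error alone. The receptors were expressed throughout, the type I receptor chains Ifnar1 with a median of 34.2 CPM and Ifnar2 with 50.5, and the type III chain Ifnlr1 with 0.304. Of 53 further interferon-stimulated genes, liraglutide+PYY3-36 replicate 7 was highest for 11 and among the 5 highest libraries for 27, and sham replicate 9 was highest for 7 and among the 5 highest for 29. Among them were Oas1f (10 CPM and 8.59, median 0.784), the Isg15-activating enzyme Uba7 (39.6 and 63.9, median 9.74) and Ifi44l (35.7 and 41.2, median 9.2). PYY3-36 replicate 5, liraglutide replicate 2 and sham replicate 11 were each highest for 6 of the 53. These libraries were among the 5 highest for 11, 11 and 10.

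The first comparison asked whether RYGB changed these genes relative to sham surgery. Of the 37 rows 0 were called at an adjusted p under 0.05, where 408 of 16508 genes (2.47%) were called over the whole table. At an unadjusted p under 0.05 there was 1 row, against 11.4% of all genes, and DESeq2 and limma also called 0 rows. The median log2 fold change was -0.00717 over the rows and -0.00548 over all genes, with 18 rows above and 19 below 0. Without sham replicate 9 the median was 0.19 and 25 rows were above 0. In batch A alone the median was 0.16, with 28 rows above 0, and in batch B alone it was -0.30, with 10.

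Parp9, which with its partner Dtx3l forms a ligase that modifies histones and viral proteins, had the smallest p. Its level ranged from 26.4 over a median of 49.6 to 68.6 CPM in RYGB and from 40.5 over 57.9 to 105.3 in sham. The groups overlapped, and the log2 fold change was -0.41 ± 0.18 (SE; edgeR, unadjusted p = 0.0285, adjusted p = 0.329). It was -0.33 without sham replicate 9. In batch A alone Parp9 was lower by a log2 fold change of -0.36. It was the single row of 37 called there (adjusted p = 0.0455 with edgeR), beside 860 of 16285 genes. In batch B alone the change was -0.52 (edgeR, unadjusted p = 0.262). The 2 rows of Dtx3l lay at -0.12 ± 0.23 and -0.17 ± 0.25 and ranged from 7.84 to 54.8 and from 6 to 54.3 CPM over all libraries. Parp14 lay at -0.05 ± 0.15, between 19.0 and 61.8 CPM.

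Among the transcription factors, Stat2 (22.2 to 272.3 CPM over the 69 libraries) had a log2 fold change of 0.24 ± 0.21 (SE). Irf7 (7.8 to 239.7 CPM) lay at 0.31 ± 0.43 and Irf9 (16.8 to 58.0 CPM) at 0.10 ± 0.15. Irf1 (3.3 to 26.3 CPM), which is induced most strongly by interferon gamma, lay at 0.01 ± 0.22. In the Isg15 system the changes were -0.84 ± 0.72 for Isg15, -0.05 ± 0.41 for Usp18 (4.39 to 128 CPM) and -0.04 ± 0.43 for Herc6 (3.93 to 119 CPM). The change of Isg15 was 0.56 in batch A alone and -2.86 in batch B alone, where sham replicate 9 is 1 of 5 sham libraries.

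The antiviral GTPases and tethers did not differ beyond the spread either. Mx1 (1.75 to 18.9 CPM) had a log2 fold change of 0.47 ± 0.325 and Mx2 (5.33 to 247 CPM) of -0.38 ± 0.60. Reads can be shared between these 2 closely related genes. Their signs were opposite in this fit but alike within each batch. In batch A alone Mx1 and Mx2 lay at 0.855 and 0.74, and in batch B alone at -0.28 and -1.76. Gbp2 (1.85 to 16.9 CPM) lay at -0.01 ± 0.23 and Gbp5 (0.212 to 5.19 CPM) at -0.22 ± 0.23. Bst2, which tethers budding virions to the cell, ranged from 14 to 349 CPM and lay at -0.125 ± 0.30.

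The oligoadenylate synthetases, which on binding double-stranded RNA make a messenger that activates an RNase, and their relatives Oasl and Oasl2 all lay above 0 in this fit without passing the test. Oas2 had the largest of these changes and the second smallest p of all rows. Its level ranged from 0 over a median of 1.03 to 1.58 CPM in RYGB and from 0.0608 over 0.454 to 1.22 in sham, with overlapping groups and a log2 fold change of 0.75 ± 0.42 (edgeR, unadjusted p = 0.0767, adjusted p = 0.527). The other changes were 0.37 ± 0.41 for Oas1a (1.73 to 45.2 CPM), 0.12 ± 0.41 for Oas1b (0.371 to 18.4), 0.35 ± 0.53 for Oasl (0.148 to 41.8) and 0.33 ± 0.38 for Oasl2 (0.212 to 18.7). In batch A alone these genes and Oas2 lay between 0.461 and 0.908. In batch B alone Oas2 lay above 0 (0.542), but Oas1a (-0.635), Oas1b (-0.631), Oasl (-0.592) and Oasl2 (-0.261) lay below. Ifit3 (1.31 over 2.55 to 6.29 CPM in sham, 1.38 over 3.91 to 8.39 in RYGB) had the third smallest p, with 0.41 ± 0.26 (edgeR, unadjusted p = 0.116, adjusted p = 0.619). Ifit1 lay at 0.97 ± 1.04 and Ifit2 (5.23 to 37 CPM) at -0.19 ± 0.23. The double-stranded RNA kinase Eif2ak2 (10.5 to 57.4 CPM) lay at -0.09 ± 0.19, and the RNA-editing enzyme Adar (16 to 85.1 CPM) at 0.05 ± 0.20.

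The nucleic acid sensors lay on either side of 0. Ddx58, which encodes RIG-I, ranged from 10.2 to 139.9 CPM and lay at -0.24 ± 0.21, Ifih1, which encodes MDA5, ranged from 5.87 to 38.7 CPM and lay at -0.235 ± 0.25, and their regulator Dhx58 ranged from 8.29 to 36.7 CPM and lay at -0.17 ± 0.15. Zbp1 (0.308 to 3.45 CPM) lay at 0.36 ± 0.25 and Trim25 (2.74 to 33.4 CPM), the ubiquitin ligase that activates RIG-I, at 0.16 ± 0.175. Of the pair that makes an antiviral nucleotide, Rsad2 (0.418 to 12.1 CPM) lay at -0.46 ± 0.31 and Cmpk2 (0.727 to 6.84 CPM) at 0.24 ± 0.26. The remaining members had the changes closest to 0 of any role, namely Ifi27 (-0.03 ± 0.19, 289.7 to 2847 CPM), Ifi35 (0.05 ± 0.115, 17 to 52.7 CPM), Ifi44 (0.05 ± 0.20, 10.1 to 90.9 CPM) and Rtp4 (-0.02 ± 0.20, 29.6 to 231 CPM).

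**Figure D4:**
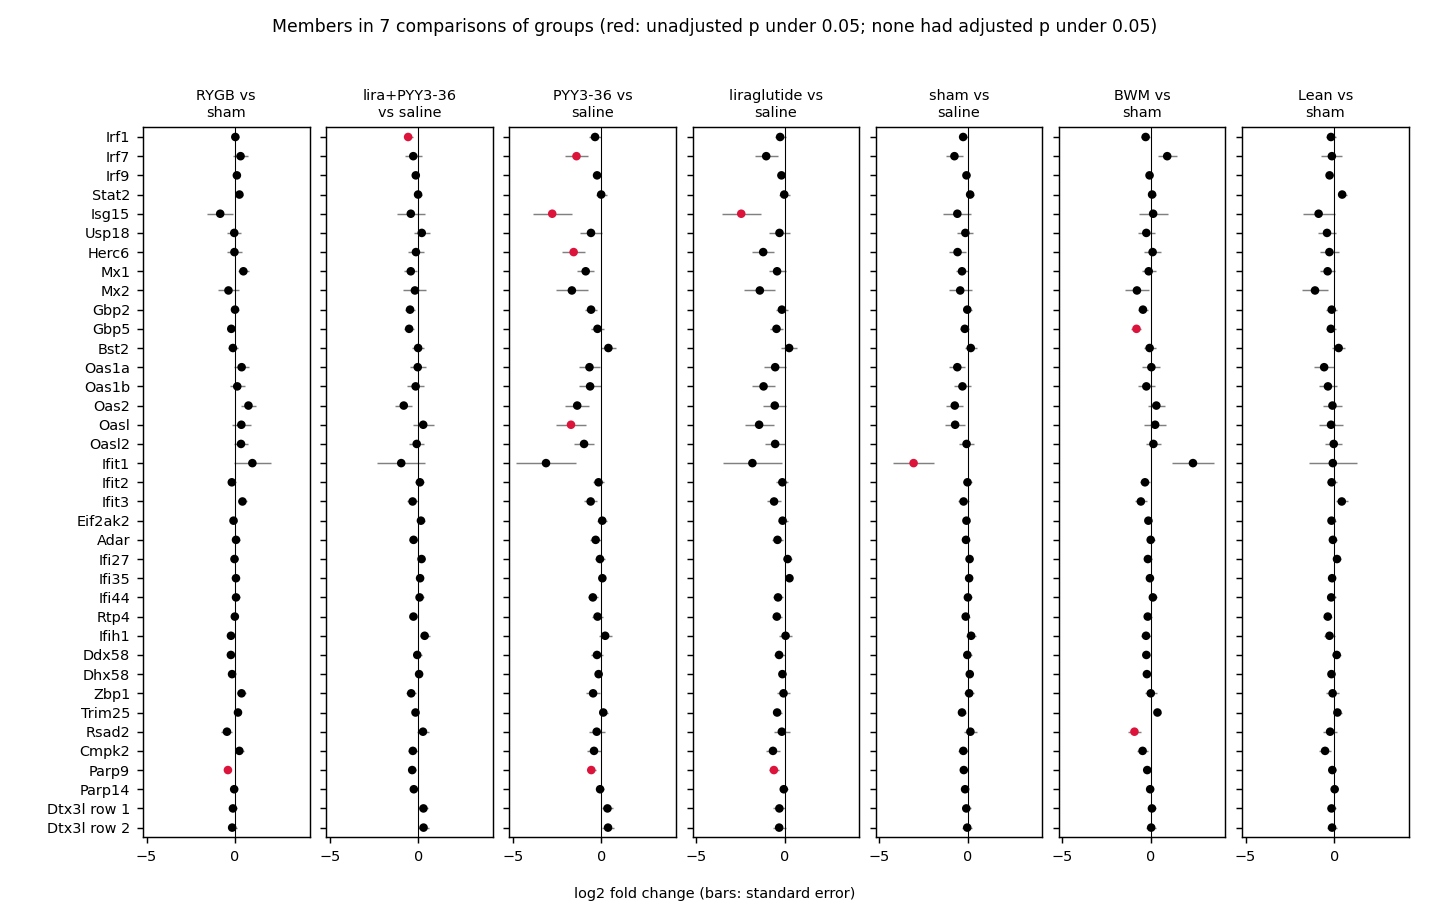
log2 fold changes of the members (rows, by role) with standard errors in 7 comparisons of groups; red marks an unadjusted p under 0.05, and no member had an adjusted p under 0.05. Isg15 lies at -2.78 in PYY3-36 and at -2.45 in liraglutide versus saline, with wide bars, and most other points are near 0.

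In the other pathway lists 0 genes were called in RYGB versus sham. The smallest p-values were those of Tor3a (log2 fold change -0.975 ± 0.29, edgeR, adjusted p = 0.0541) and the chemokine Cxcl10 (-1 ± 0.30, adjusted p = 0.0609) among further interferon-stimulated genes. Among inhibitors they were those of Pias1 (0.30 ± 0.10, adjusted p = 0.0788), and the phosphatase Ptpn6 (-0.20 ± 0.10, adjusted p = 0.396). Ticam1 (0.35) and Myd88 (-0.14) led the other nucleic acid sensors and adaptors, Stat3 (0.17) and Irf8 (-0.15) the signalling factors, and Ifnlr1 (0.45) and Ifngr2 (-0.20) the interferon receptors. The sum of Kupffer cell and macrophage markers was 212 to 717 CPM (median 353) in RYGB and 186 to 490 (median 271) in sham, with overlapping groups. All 10 of these markers had a log2 fold change above 0 (median 0.36), 4 of them at an unadjusted p under 0.05, with a smallest adjusted p of 0.0505 in edgeR. Of the 10 T and NK cell markers tested 8 were below 0 (median -0.28). No marker that passed the filter on low counts was called in a comparison of groups, but 3 of 5 plasmacytoid dendritic cell, 3 of 5 neutrophil and 2 of 12 T and NK cell markers did not pass it. The part of macrophages in the member levels was not tested.

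The drug treatments were compared with saline, and these comparisons share the same 8 saline libraries. In liraglutide+PYY3-36 versus saline 0 of 37 rows were called, as were 0% of all genes. At an unadjusted p under 0.05 there was 1 row, against 7.62% of all genes, and DESeq2 and limma called 0 rows. The median log2 fold change was -0.14 over the rows and -0.00158 over all genes. Irf1 had the smallest p, with 5.04 over 10.9 to 16.5 CPM in liraglutide+PYY3-36 and 9.59 over 17.2 to 26.3 in saline, overlapping groups and a change of -0.57 ± 0.25 (edgeR, unadjusted p = 0.0282, adjusted p = 0.589). Gbp5 (-0.52 ± 0.265) and Gbp2 (-0.465 ± 0.26) followed, both with an adjusted p of 0.589 in edgeR. Gbp5 ranged from 0.212 over 2 to 2.66 CPM with treatment and from 0.821 over 2.44 to 5.19 in saline. Gbp2 ranged from 2.76 over 5.39 to 8.6 and from 3.29 over 7.64 to 16.9. Of the Kupffer cell and macrophage markers 9 of 10 lay below 0 (median -0.30, 2 at an unadjusted p under 0.05). So did 9 of 10 T and NK cell markers tested (median -0.18) and 4 of 5 B cell markers (median -0.56). None of these markers was called, and their part in the member levels was not tested.

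The direction over the members of this comparison rested on few libraries. In batch A alone, with 6 treated and 3 saline libraries, all 37 rows were below 0, with a median of -0.53. There 12 rows had an unadjusted p under 0.05, against 1038 of 16285 genes. In batch B alone 25 of 37 were above 0, with a median of 0.30. Saline replicates 2 and 3, with 33.1 and 79.2 CPM of Isg15, are 2 of the 3 saline libraries of batch A. Without liraglutide+PYY3-36 replicate 7 the median of the 37 was -0.47, and without saline replicate 2 the median was 0.02. In each of these fits 0 rows were called.

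For PYY3-36 versus saline 0 of 37 rows and 0% of all genes were called. At an unadjusted p under 0.05 there were 5 rows, against 3.99% of all genes, each below saline, and DESeq2 and limma called 0 rows. The median was -0.36 over the rows, with 30 below 0, and 0.04 over all genes. Immune cell markers lay below 0 as well, 10 of 10 T and NK cell markers tested (median -0.36), 8 of 10 Kupffer cell and macrophage markers (median -0.40, 2 at an unadjusted p under 0.05) and 5 of 5 B cell markers (median -0.73), none of them called, and their part in the member levels was not tested. Isg15 had a log2 fold change of -2.78 ± 1.10 (edgeR, unadjusted p = 0.0147, adjusted p = 0.992), although its 5 values of 8.64 to 18.6 CPM lay within the saline range of 6.07 to 79.2. Herc6 (6.13, 8.29, 8.17, 10.2 and 13.5 CPM, saline 7.22 over 17.6 to 38.5) lay at -1.57 ± 0.64, and Parp9 (32.5, 55, 53.9, 62.8 and 54.4 CPM, saline 43.9 over 70.2 to 103.9) at -0.575 ± 0.27. Irf7 (-1.41) and Oasl (-1.72) were the other 2 rows. Because PYY3-36 has libraries in batch B only, these values rest on the estimated batch difference, and within batch B alone Isg15 lay at -0.48 (unadjusted p = 0.643) and Herc6 at -0.94 (unadjusted p = 0.233), with 0 rows at an unadjusted p under 0.05 and a median of -0.16. Leaving out saline replicate 3 moved the value of Isg15, PYY3-36 versus saline, to -1.84.

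Liraglutide versus saline gave similar counts from the same saline libraries. Of the 37 rows 0 were called, against 0.00606% of all genes, and 2 had an unadjusted p under 0.05, against 5.12% of all genes. DESeq2 and limma called 0 rows. The median was -0.37 over the rows, with 33 below 0, and 0.01 over all genes. Of the T and NK cell markers tested 7 of 10 lay above 0 (median 0.12). So did 7 of 10 Kupffer cell and macrophage markers (median 0.14) and 3 of 5 B cell markers (median 0.06). None of these markers was called, and their part in the member levels was not tested. Parp9 (60.4, 81.5, 38.7, 23.2 and 50.5 CPM) lay at -0.61 ± 0.27, Isg15 at -2.45 ± 1.09 and Herc6 (6.33, 26.4, 6.18, 3.93 and 17 CPM) at -1.21 ± 0.635, with adjusted p-values of 0.959, 0.959 and 0.995 in edgeR. Their ranges overlapped those of saline. Within batch B alone the values were -0.61, -0.15 and -0.57, with 0 rows at an unadjusted p under 0.05.

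The effects of RYGB and of liraglutide+PYY3-36 were compared with each other in the same fit. Of the 37 rows 0 were called, against 0.0121% of all genes, 1 had an unadjusted p under 0.05, against 8.89% of all genes, and DESeq2 and limma called 0. Oas2 had the smallest p, with an effect of 0.75 in RYGB and of -0.82 in liraglutide+PYY3-36, a difference of 1.57 ± 0.63 (edgeR, unadjusted p = 0.0159, adjusted p = 0.527). Zbp1 (0.76 ± 0.39) and Ifit3 (0.74 ± 0.39) followed. Zbp1 ranged from 0.334 over 1.08 to 3.45 CPM in RYGB, 0.326 over 1.07 to 2.25 in sham, 0.346 over 0.709 to 1.9 in liraglutide+PYY3-36 and 0.534 over 1.18 to 1.46 in saline. The median difference over the rows was 0.20, and it was 0.57 in batch A alone and -0.63 in batch B alone.

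The 2 control groups were set side by side as well. In sham versus saline 0 of 37 rows and 0% of all genes were called, 1 row had an unadjusted p under 0.05, against 1.88% of all genes, and DESeq2 and limma called 0 rows. Ifit1 ranged from 0 over 0.0714 to 5.08 CPM in sham and from 0 over 2.08 to 59.0 in saline, with a log2 fold change of -3.06 ± 1.16 (edgeR, unadjusted p = 0.0108, adjusted p = 1). Without saline replicate 2 the change was -1.62. Trim25 (-0.33 ± 0.20) and Irf7 (-0.755 ± 0.47) had the next smallest p. Trim25 ranged from 4.52 over 12 to 19.2 CPM in sham and from 5.68 over 9.71 to 20.2 in saline. In batch A alone the median over the rows was -0.495 with 33 below 0. There 17 rows had an unadjusted p under 0.05, against 572 of 16285 genes. That fit has 7 sham and 3 saline libraries, among them saline replicates 2 and 3, with 33.1 and 79.2 CPM of Isg15. In batch B alone the median was 0.24 with 10 rows below 0.

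BWM and Lean were compared with the same 12 sham libraries in the fit of all 8 groups. In BWM versus sham 0 of 37 rows were called, against 0.042% of all genes, and 2 had an unadjusted p under 0.05, against 3.18% of all genes. DESeq2 and limma called 0 rows. Gbp5 (0.946 over 1.17 to 3.08 CPM in BWM, 1.04 over 1.94 to 4.33 in sham) lay at -0.82 ± 0.28 (edgeR, unadjusted p = 0.00528, adjusted p = 0.956). Rsad2 (0.75 over 1.35 to 3.99 CPM, sham 1.54 over 3.2 to 12.1) lay at -0.93 ± 0.37 (edgeR, unadjusted p = 0.0144, adjusted p = 1). Ifit1 lay at 2.37 ± 1.21, and at 0.16 without BWM replicate 5, whose Ifit1 level of 44.2 CPM compares with 3.96 in the next BWM library. Irf7 likewise had a fitted change of 0.92 ± 0.54 although its median was lower in BWM (13.6 CPM) than in sham (16.2). Without BWM replicate 5 the median over the 37 rows moved from -0.08 to -0.33, and 34 rows were below 0.

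In Lean versus sham 0 of 37 rows were called, against 0.612% of all genes, and 0 had an unadjusted p under 0.05, against 6.07% of all genes. DESeq2 and limma called 0 rows. Stat2 (100.2 over 153.8 to 272.3 CPM in Lean, 33.9 over 103.5 to 170.2 in sham) lay at 0.45 ± 0.25 (edgeR, unadjusted p = 0.0812, adjusted p = 0.916), and at 0.27 without Lean replicate 3. Cmpk2 (0.962 over 1.39 to 1.9 CPM, sham 0.838 over 2.03 to 6.16) lay at -0.51 ± 0.35. Mx2 (11.3 over 15.3 to 18 CPM, sham 7.08 over 14.5 to 246.6) lay at -1.08 ± 0.75, and at -0.31 without sham replicate 9. Lean was the group with the narrowest range of Isg15 and Irf7, from 3.92 to 9.33 and from 13.6 to 25.1 CPM, among groups of over 5 libraries. With 6 libraries it is also the smallest of these groups, and a range can widen with the number of libraries. BWM and Lean have libraries in batch A only, and in batch A alone 0 rows were called in either comparison. There Stat2, Cmpk2 and Mx2 lay at 0.425, -0.273 and -0.121 in Lean versus sham. In BWM versus sham Gbp5 and Rsad2 lay at -0.631 and -0.793 in batch A alone. Irf7 lay at 1.07 and Isg15 at 1.31 (0.122 with both batches), and both were highest in BWM replicate 5. In batch A alone 4 rows (BWM) and 1 row (Lean) had an unadjusted p under 0.05, against 1965 and 2133 of 16552 genes.

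Between batches 16 of 37 rows were called, 10 higher and 6 lower in batch B, where 58.4% of all genes were called, 31.9% higher and 26.4% lower. The share of the rows was thus below that of all genes. What the batches differ in is not stated, and the longer feeding of some animals cannot be told apart from it in liraglutide+PYY3-36 and saline. Ifi27 was the most separated member, with 334.6 over 540.4 to 711.6 CPM in the 27 batch A libraries of the 6 treatment and control groups and 845 over 1269 to 2847 in the 28 of batch B. The batches did not overlap for Ifi27, and the log2 fold change was 1.52 ± 0.15 (edgeR, adjusted p = 1.51e-12). Trim25 was lower in batch B, with 9.31 over 18.2 to 27.6 CPM in A and 2.74 over 6.86 to 14.2 in B, a change of -1.43 ± 0.15 (edgeR, adjusted p = 4.31e-12). These batches overlapped.

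Isg15 ranged from 1.81 over 6.07 to 79.2 CPM in batch A and from 6.75 over 11.4 to 434.1 in batch B, with a change of 2.34 ± 0.59 (edgeR, adjusted p = 6.98e-04) that was 1.25 without liraglutide+PYY3-36 replicate 7 and 1.33 without sham replicate 9. The other rows higher in batch B were Ifi44 (0.96; A 10.1 over 17.9 to 30.6 CPM, B 17.2 over 29.3 to 90.9), Rsad2 (0.95; A 0.418 over 2.37 to 7.59, B 1.74 over 4.4 to 12.1), Herc6 (0.92; A 4.26 over 8.49 to 34.2, B 3.93 over 11 to 119), Zbp1 (0.90), Rtp4 (0.85), Dhx58 (0.54), Cmpk2 (0.48) and Ifi35 (0.45). Zbp1 ranged from 0.326 over 0.792 to 1.55 CPM in A and from 0.421 over 1.24 to 3.45 in B, and Rtp4 from 30.8 over 54.1 to 97.7 and from 51.3 over 82.6 to 231. Dhx58 ranged from 8.29 over 12.7 to 21.2 CPM in A and from 11.9 over 16.3 to 36.7 in B, Cmpk2 from 0.838 over 1.97 to 4.62 and from 1.11 over 2.37 to 6.84, and Ifi35 from 19.5 over 26.5 to 34.2 and from 22.3 over 35.3 to 52.7. Each of these ranges overlapped. Herc6 was no longer called without liraglutide+PYY3-36 replicate 7 (0.45) or without sham replicate 9 (0.54), and Cmpk2 was at 0.34 and 0.37 and not called.

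Lower in batch B besides Trim25 were Oas1a (-0.93), Oas2 (-0.82), Stat2 (-0.72), Gbp5 (-0.48) and Parp14 (-0.29). Stat2 ranged from 83.1 over 126.4 to 200.9 CPM in A and from 22.2 over 68.7 to 133.4 in B. Oas1a ranged from 3.31 over 11.5 to 38.9 CPM in A and from 1.73 over 4.55 to 33.5 in B, and Oas2 from 0.189 over 0.745 to 1.93 and from 0 over 0.281 to 1.4. Gbp5 (1.2 over 2.15 to 5.19 CPM in A, 0.212 over 1.67 to 4.33 in B) and Parp14 (25.3 over 40.8 to 61.8 and 19.0 over 33.4 to 58.8) also overlapped. Gbp5 was at -0.39 and not called without saline replicate 2. Members with the same motif thus lay on either side, Ifi44 and Rsad2 higher and Oas1a and Gbp5 lower in batch B. The median over the 37 rows was 0.16, against 0.08 over all genes, and it was -0.07 without liraglutide+PYY3-36 replicate 7. Without the 6 libraries apart on the first component 20 rows were called, beside 10264 of 16564 genes, and Oas1a (-0.77; edgeR, adjusted p = 0.0539), Oas2 (-0.58, 0.118), Gbp5 (-0.38, 0.0598), Parp14 (-0.175, 0.202) and Cmpk2 (0.47, 0.0586) were no longer called. Newly called there were Irf1, Irf7, Oasl2, Ddx58 and Adar, higher in batch B, and Ifih1, Eif2ak2 and both rows of Dtx3l, lower.

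**Figure D5:**
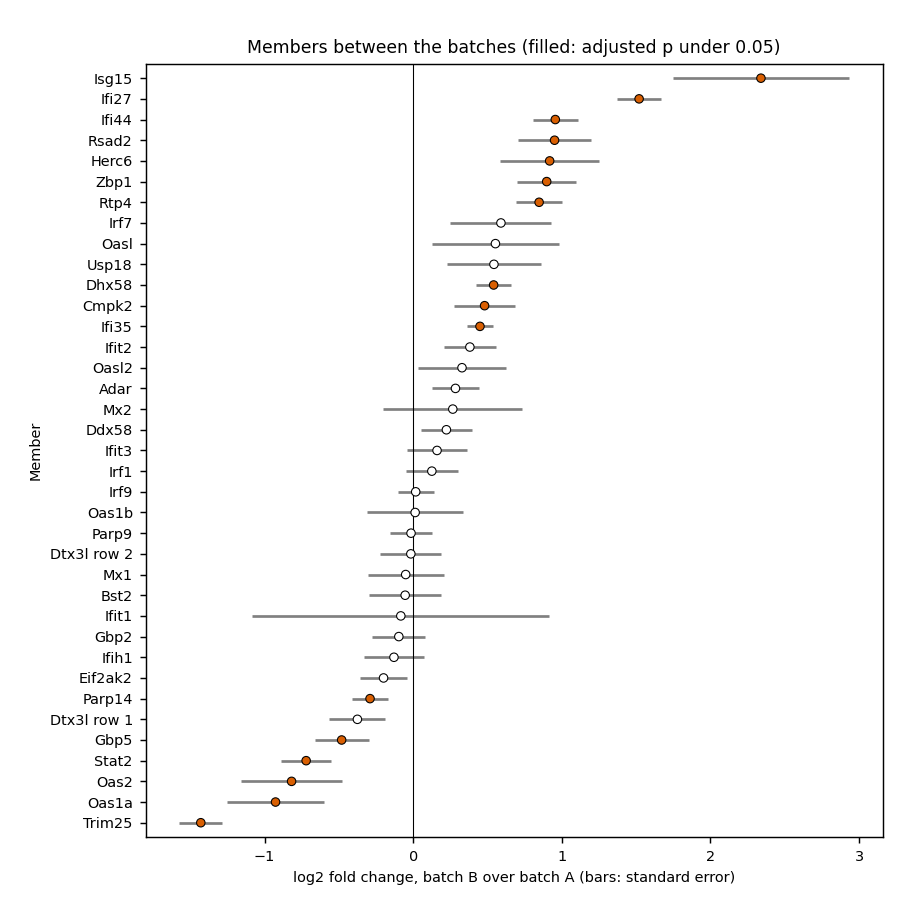
log2 fold changes of the 37 rows between batch B and batch A with standard errors, ordered by size, from the 55 libraries of 6 groups; filled points had an adjusted p under 0.05. Isg15 lies highest at 2.34 and Trim25 lowest at -1.43, and 10 filled points lie above and 6 below 0.

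Other genes of the pathway were called between batches in counts to be read against the 58.4% of all genes. Of 53 further interferon-stimulated genes 20 were higher and 5 lower in batch B. Of 11 signalling genes 3 (Irf3, Tyk2, Ikbke) were higher and 4 (Jak1, Jak2, Stat3, Irf2) lower. Of 9 other nucleic acid sensors and adaptors tested 2 were higher (Tmem173, Tlr7). Of 7 inhibitors 1 was higher (Socs1) and 2 lower (Irf2bp1, Pias1), and of 6 interferon receptor genes 1 was higher (Ifnar2) and 2 lower (Ifnar1, Ifngr1). The higher further genes included B2m (1.26), the immunoproteasome subunits Psmb9 (0.92) and Psmb10 (1.41) and Uba7 (1.22), and the lower ones Oas3 (-1.80) and Samhd1 (-0.91). The summed neutrophil markers were 0.553 to 5.19 CPM in batch A and 2.13 to 27.4 in batch B over all libraries, and their part in the member levels was not tested.

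Whether the effect of RYGB differed between batches was tested in the RYGB and sham libraries alone. Of the 37 rows 0 were called, as were 0% of all genes, 6 had an unadjusted p under 0.05, against 7.7% of all genes, and limma called 0 rows, as did DESeq2, which gave no p for Isg15. The difference was below 0 in 36 of 37 rows, with a median of -0.36, against -0.07 over all genes, and without sham replicate 9 it was below 0 in 24 rows with a median of -0.16. Isg15 (-3.42 ± 1.15; edgeR, unadjusted p = 0.00643, adjusted p = 0.458), Mx2 (-2.51 ± 1.05) and Ifih1 (-1.05 ± 0.46) had the smallest p. Isg15 moved to -0.64 and Mx2 to -0.67 without sham replicate 9, and Ifih1, which was at 38.7 CPM in sham replicate 12, to -0.37 without the 6 libraries apart on the first component.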

How the data were processed

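Liver RNA of 69 rats was sequenced as poly(A) libraries, single-end and stranded. According to the methods of the study and its processing notes, the authors made FASTQ files with bcl2fastq 2.20.0.422, trimmed reads with cutadapt 2.5, aligned them with STAR 2.7.2b to Rnor_6.0 with RefSeq annotation and counted them with featureCounts 1.6.4 on the reverse strand. Reads that fit several places were divided, so the authors deposited estimated counts that are not normalized, and 15.9% of them were not whole.

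Counts were rounded and tested with edgeR 4.0.16 (R 4.3.3; quasi-likelihood test, robust, TMM scaling, low counts removed with filterByExpr) with terms for group and batch. The 6 treatment and control groups were fitted together (55 libraries, 16508 genes), BWM and Lean with all 69 libraries (16676 genes) and the difference between batches in RYGB and sham alone (14967 genes). P-values were Benjamini-Hochberg adjusted over all genes tested and called under 0.05. CPM were computed from unrounded counts. No 2 libraries of a group agreed within sampling noise (chi-square per degree of freedom at least 24.2). The scripts were tested on simulated data.

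The members, the pathway lists and the marker lists were chosen with earlier results of these data known. Named with values were all members, with every library or the range per group for members called in a comparison or among its 3 smallest p-values, pathway genes called or among the 2 smallest p-values of their list in RYGB versus sham, and the libraries highest or lowest for most members. B2m, Psmb9, Psmb10, Uba7, Oas3, Samhd1, Oas1f and Ifi44l and the range of Usp18 in single libraries were chosen after their values were seen. Alternatives were DESeq2 1.42.0, limma 3.58.1 (voom with sample weights), no filter, other sample sets, each batch alone, a replicate block, leaving out the 6 libraries apart on the first principal component and leaving out each library. One signalling gene is not reported here.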

Additional observations from a re-analysis of the deposited data

Results flagged for a closer look

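In groups of 4 to 10 libraries, the highest and the lowest library of each of 24 members were compared with the rest of their group by Dixon's ratio. In 24 of 120 groups a library lay beyond its 95% critical value. A chance rate of about 1 in 20 holds for normally distributed values, whereas the ratios were taken on CPM and at both ends of a group. The members were chosen for calls or small p-values in the same data and are not independent of each other. The share of flags over all genes was not determined, so 24 of 120 cannot be read as more than chance. RYGB, sham and liraglutide+PYY3-36 have too many libraries for this test, so sham replicate 9 and liraglutide+PYY3-36 replicate 7 were not tested.

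BWM replicate 5 was far above the other BWM libraries for 10 members. Its Irf7 was 204.7 CPM where the next library had 31.8, its Isg15 63.3 (next 9.34), its Mx2 72.3 (next 19.5), its Ifit1 44.2 (next 3.96) and its Herc6 40.1 (next 8.5). Oas1a was at 45.2 CPM (next 11.6), Oas2 at 2.23 (next 1.04), Ifi44 at 40.5 (next 21.9), Rsad2 at 3.99 (next 2) and Parp9 at 101.7 (next 61.6). Its sum of Kupffer cell and macrophage markers was 391 CPM, the 14th highest of 69. The guanylate-binding proteins were highest in another BWM animal, replicate 4, with 15.8 CPM of Gbp2 (next 6.64) and 3.08 of Gbp5 (next 1.71).

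Saline replicate 2 was high for Ifit1 (59.0 CPM, next 13.6), Gbp2 (16.9, next 8.29) and Gbp5 (5.19, next 2.62), and saline replicate 5 for Rtp4 (166.2, next 97.7). Liraglutide replicate 5 was high for Isg15 (29.2 CPM, next 14.4), Dhx58 (23.7, next 16.4) and Rsad2 (11.2, next 4.12). Liraglutide replicate 4 was low for Gbp2 (3.64 CPM, next 7.65) and PYY3-36 replicate 5 high for Ifih1 (34.4, next 9.45), and both are among the 6 libraries apart on the first principal component. PYY3-36 replicate 3 was high for Cmpk2 (3.45 CPM, next 2.46), Lean replicate 4 for Oas2 (0.95, next 0.602) and Lean replicate 2 for Ifit1 (5.03, next 1.32).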

How the results depend on the processing

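The count of 0 members called held under each alternative run for the comparisons of groups and for the difference between batches in the effect of RYGB, with 1 exception. In batch A alone 1 row of 37, Parp9, was called in RYGB versus sham, beside 860 of 16285 genes. The fit of both batches called 408 of 16508 genes, DESeq2 563 of 16504 and limma 1503 of 16508. Leaving out 1 library at a time gave 0 rows in each of these 9 comparisons and 13 to 18 of 37 between batches. The fit of all 55 libraries called 16 of 37 rows and 58.4% of all genes between batches. With the replicate number as a block 7 rows were called between batches, beside 5144 of 16508 genes. The numbers were not taken to pair animals, since the deviations of equally numbered libraries correlated at -0.469 to 0.167 over 12 pairs of RYGB and sham, and at -0.262 to 0.479 over 8 pairs of liraglutide+PYY3-36, -0.416 to -0.127 over 4 of PYY3-36 and -0.25 to 0.348 over 4 of liraglutide with saline, and 3, 2, 0 and 0 of these pairs correlated best with their own number. The 43 values of members called in a comparison or among its 3 smallest p-values were recomputed. Of their 1912 values under alternatives, 1849 kept their direction and side of the threshold, 60 lost and 1 gained the call, and 2 reversed: Irf7 in sham versus saline was 0.0422 in batch B alone, and Parp14 between batches was 0.00885 under the replicate block; the cause was not tested. Values outside these 43 could also change sign, as Isg15 in RYGB versus sham did in batch A alone (0.56). Oas2, Zbp1 and Ifit1 had the fewest reads and thus the most counting error.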
